A study of Mus musculus with 9 samples.

Results

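The genes described here encode the proteins of the cytosolic and the mitochondrial ribosome, and they were taken from the gene table by symbol alone. Of 21868 genes, 170 matched: 92 carry cytosolic names (Rpl or Rps followed by a digit, without the Rps6k kinases, and Rplp0, Rplp1, Rplp2 and Rpsa) and 78 carry mitochondrial names (Mrpl or Mrps). Bulk RNA sequencing covered 9 libraries of mouse jejunum, 3 from each of 3 groups labelled sham, TPN and starvation, each lasting 24 h. TPN is the usual short form of total parenteral nutrition, feeding through a vein. The labels give no strain, age, sex, genotype or feeding of the sham group, and they do not say that the replicates came from separate mice, so a p-value measures the spread between these libraries. A library came from a 5 cm jejunal segment slit along its length, so fewer cells of a type and less RNA per cell cannot be told apart.

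The cytosolic ribosome translates nuclear mRNAs, and the mitochondrial ribosome translates the few mRNAs of mitochondrial DNA, most of them for subunits of oxidative phosphorylation. Both have a small subunit that reads the mRNA and a large subunit that joins amino acids, and the proteins of both are encoded in the nucleus. Cytosolic ribosomal protein mRNAs begin with a run of pyrimidines (C and T), the terminal oligopyrimidine motif, through which mTORC1, a nutrient-sensing kinase complex, is known to control their translation. In the intestine the dividing cells of the crypts are known for high ribosome production.

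Of the cytosolic names, 46 were core large subunit genes and 31 core small subunit genes. Another 8 were paralogs, 6 had pseudogene-type names ending in -ps and a number, and Rps19bp1 encodes a protein that binds a ribosomal protein. Of the mitochondrial names, 49 were large subunit and 28 small subunit genes, and Mrps36 encodes a protein now placed with the oxoglutarate dehydrogenase complex. A filter on low counts left 85 cytosolic and all 78 mitochondrial genes. The 7 that did not pass were Rpl36a-ps1, Rpl10-ps3, Rpl9-ps1, Rpl36-ps4, Rpl10l, Rpl39l and Rpl3l, so that all core genes were tested.

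The libraries held 7779877 to 12084278 counts. All 9 enterocyte markers had reads in every library. Sham replicate 2 stood apart by its smooth muscle markers, which summed to 10990 CPM (counts scaled to library size with TMM factors) against 712 to 1811 in the other 8 libraries, all 12 of 12 with reads. Starvation replicate 3 stood apart by its crypt markers, 205.8 CPM against 612 to 1080 elsewhere (8 of 8 with reads), and by markers of cycling cells, 116 CPM against 191.9 to 427.4 (10 of 10 with reads). It was also the highest for the summed enterocyte and villus tip markers, at 92550 and 77020 CPM. Sham replicate 2 followed at 69100 and 60460 CPM, with at most 43130 and 29010 CPM in the other libraries. Both lists hold Apoa4, which averaged 34192 CPM in sham and dominates both sums. By the mean of log2 CPM over the markers, starvation replicate 3 was again highest, at 11.54 and 10.39. Sham replicate 2 was next for villus tip markers, at 9.78. For enterocyte markers it stood at 10.89, below sham replicate 3 at 10.95. Pancreatic acinar markers ran from 30.6 to 22730 CPM and were highest in TPN replicate 2. Results are therefore also given without sham replicate 2 and starvation replicate 3.

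The transcripts of the cytosolic ribosome resemble other genes far more than those of the mitochondrial ribosome, which bears on how their reads could be assigned. In GENCODE release M21 on GRCm38, 301 pseudogenes carry a cytosolic ribosomal protein name and 5 a mitochondrial one. When the exons of each core gene were divided into overlapping windows of 50 bases, a median of 47.9% of windows of the 77 cytosolic genes also occurred in another gene, with 36 genes at 50% or more. The median over the 77 mitochondrial genes was 2.58%, with 5 genes at 50% or more and 29 at 0. A pseudogene matched at least 1 window in 76 cytosolic and 30 mitochondrial genes. The share was 85.6% for Rpl3, 41.8% for Rplp0, 30.2% for Rpl15 and 19.1% for Rps24, so the cytosolic genes differ widely among themselves. With windows of 100 bases the medians were 33.9% and 0%. How the authors treated reads that match several places, and the length of the reads, is not given in the sources used here.

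**Figure D1:**
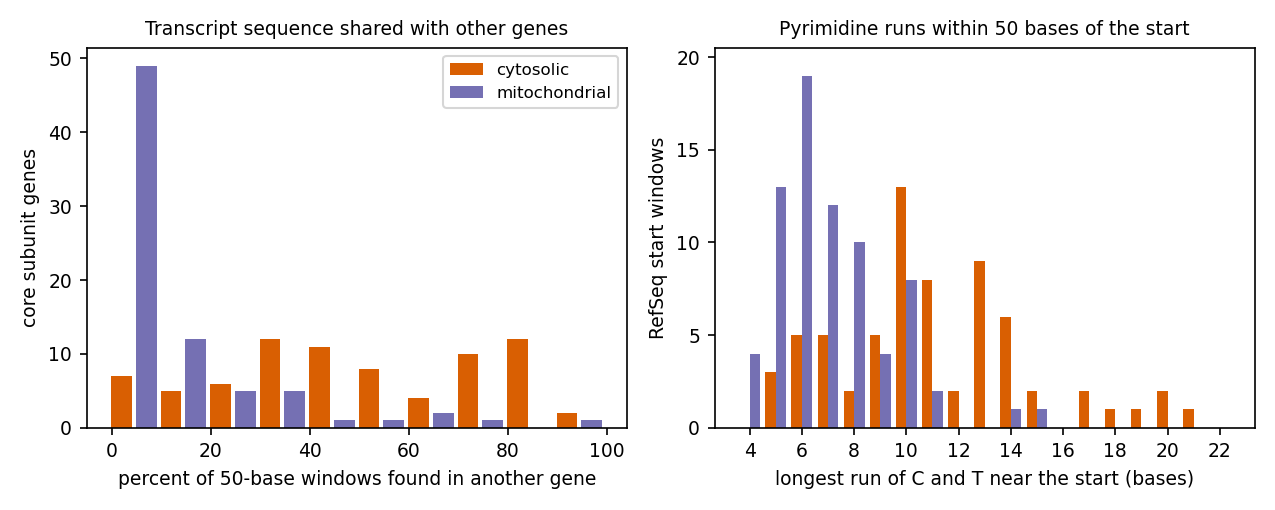
Left, the number of core subunit genes (vertical axis) by the percent of their 50-base exon windows found in another gene. Right, the number of RefSeq start windows by the longest run of C and T within 50 bases of the start. Mitochondrial genes pile up near 0 on the left, where cytosolic genes spread with a median of 47.9%, and the cytosolic runs on the right reach 21 bases against 15.

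The start sites were compared next, since the pyrimidine run is the feature these mRNAs are known for. RefSeq promoter windows on GRCm38.p6 were found for 57 of the 77 cytosolic core genes (67 windows) and 68 of the 77 mitochondrial core genes (74 windows). A run of at least 10 C or T bases within 50 bases of the start was present in 47 of the cytosolic windows (70.1%) and 12 of the mitochondrial windows (16.2%), against 18.1% of all 32851 windows. The median longest run was 11 bases in cytosolic windows, 7 in mitochondrial windows and 7 in all. The windows below show the run, in capitals, for 4 cytosolic genes and for 3 mitochondrial genes whose values are described further on. They were chosen after the values were seen. Each is 30 bases on the strand of transcription, 5′ to 3′.
Rpl15, chr14:18270968-18270997, minus strand: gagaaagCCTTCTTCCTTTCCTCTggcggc
Rps24, chr14:24490710-24490739, plus strand: gagcggTCCTCTTTTCCTCCTCTCCagctc
Rpl7a, chr2:26910788-26910817, plus strand: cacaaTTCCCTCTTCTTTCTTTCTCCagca
Rps6, chr4:86857349-86857378, minus strand: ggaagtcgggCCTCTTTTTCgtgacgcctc
Mrpl51, chr6:125192214-125192243, plus strand: gcccaaaatggCTCCTCTTactgtcactac
Mrpl36, chr13:73330973-73331002, plus strand: ccttacgccaTCTTTCTTCCTggcggtggc
Mrpl27, chr11:94653758-94653787, plus strand: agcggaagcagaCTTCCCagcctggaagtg
The run was 17 bases for Rpl15, 19 for Rps24, 21 for Rpl7a and 10 for Rps6. It was 8 for Mrpl51, 11 for Mrpl36 and 6 for Mrpl27. Of genes not shown, Rpl12 and Rps9, which fell in starvation, had runs of 8 and 9, and Mrps6 had 10. A run of 10 or more thus did not separate the ribosomes gene by gene. Counted from the listed start, the runs of Rps24, Mrpl36, Mrpl27 and Mrpl51 began at -37, -26, -21 and 26. The capitals therefore need not mark the first bases of an mRNA.

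Of the motifs searched on both strands in the 300-base windows, the ETS-type letters CCGGAAG occurred in 37.3% of cytosolic and 35.1% of mitochondrial windows, against 8.86% of all. The YY1-type letters AAGATGGC occurred in 10.4% and 16.2%, against 2.75% of all, so both ribosomes exceeded the share of all windows for these 2 motifs. The palindrome known as a ZBTB33-type element, in capitals in the windows below, occurred in 7 cytosolic windows (10.4%) and 1 mitochondrial window (1.35%), against 0.466% of all. Overlapping start windows of Rps19 hold the same site, which is therefore counted more than once among the cytosolic windows. The NRF1-type palindrome occurred in 2.99% and 4.05% against 0.971%, the E-box CACGTG in 11.9% and 9.46% against 7.15%, and TATAAA in 8.96% and 6.76% against 13.6%. A match says only that these letters are present. The palindrome is shown, in capitals, for 3 of the cytosolic genes and for the mitochondrial gene that held it.
Rps6, chr4:86857399-86857428, minus strand: cgccggctgtTCTCGCGAGAacttagagcg
Rpl12, chr2:32961648-32961677, plus strand: ggccagcggtTCTCGCGAGAgctgagcttt
Rps28, chr17:33824544-33824573, minus strand: ccgcgtgcggTCTCGCGAGAgcgaaagtga
Mrpl57, chr14:57826192-57826221, plus strand: agaaggcgtcTCTCGCGAGAgcggaactct

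The cytosolic genes supplied several times as many counts as the mitochondrial genes in every library. Their share of all counts was 1.073%, 1.315% and 1.139% in sham replicates 1 to 3, 1.353%, 1.481% and 1.496% in the TPN libraries, and 1.065%, 1.001% and 0.5467% in the starvation libraries. All TPN libraries lay above all sham libraries, and all starvation libraries lay below them, though sham replicate 1 and starvation replicate 1 were nearly equal. On the TMM scale used for all other values, the cytosolic sums were 10914, 14897 and 11463 CPM in sham, 12736, 13730 and 13397 CPM in TPN, and 9374, 9632 and 7167 CPM in starvation. There sham replicate 2 exceeded every TPN library, and starvation still lay below both other groups. The mitochondrial genes held 0.219%, 0.193% and 0.225% in sham, 0.206%, 0.2003% and 0.204% in TPN, and 0.209%, 0.185% and 0.15% in starvation, and these groups overlapped. On the TMM scale they did not all overlap: the mitochondrial sums were 2190 to 2269 CPM in sham, above 1828 to 1935 CPM in TPN and 1781 to 1967 CPM in starvation. The ratio of cytosolic to mitochondrial counts averaged 5.58 ± 1.06 in sham, 7.10 ± 0.451 in TPN and 4.71 ± 0.939 in starvation (SD, n = 3). On this ratio, TPN did not overlap with starvation, whereas sham, at 4.89, 6.80 and 5.05, overlapped with both. These sums are descriptions and carry no test. Sham replicate 2, with the high smooth muscle markers, had the highest sham share, and starvation replicate 3, with the low crypt markers, the lowest share of all. The part of those cells in the shares was not tested.

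**Figure D2:**
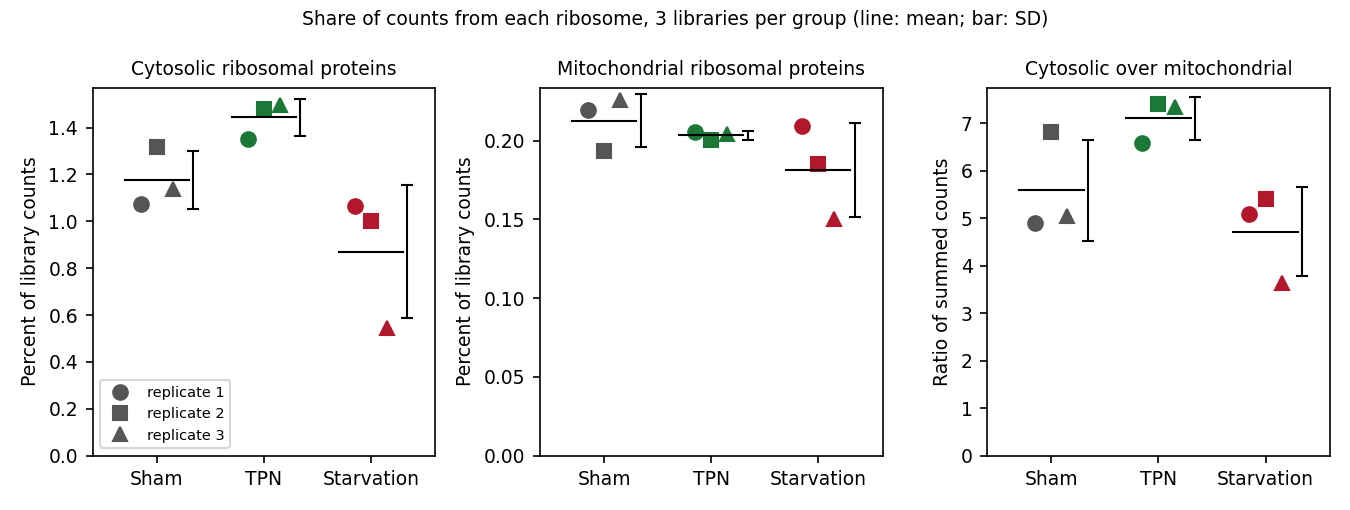
Percent of each library's counts from cytosolic (left) and mitochondrial (middle) ribosomal protein genes, and the ratio of both sums (right), by group; points are libraries, lines means and bars SD. The cytosolic share runs from 1.353% to 1.496% in TPN and from 0.5467% to 1.065% in starvation, while the mitochondrial shares of the 3 groups overlap; these are shares of raw counts, and on the TMM scale sham replicate 2 exceeds every TPN library for the cytosolic genes and sham lies above both treatments for the mitochondrial genes.

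Per kilobase of exon, the median level over all libraries was 46.3 CPM for cytosolic and 6.58 CPM for mitochondrial core genes. The cytosolic range ran from 1.88 CPM per kilobase for Rps26 to 568 for Rpl36, and the mitochondrial range from 0.304 for Mrpl13 to 126 for Mrpl34. The genes of each ribosome were thus far apart in read density. Cytosolic genes with 50% or more of their windows shared had a median of 71.3 CPM per kilobase and the others 39.6, with a Spearman correlation of 0.125 between level and shared percent across the 77 genes, which share their libraries and are not independent. Without normalization for length, Rps2, a small subunit protein, was the highest cytosolic gene at 734 CPM and Rps26 the lowest core gene at 2.91. Mrpl12, which lies on the stalk of the mitochondrial large subunit, was the highest mitochondrial gene at 105 CPM, and Mrps36 the lowest at 1.30.

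Starvation against sham asks what 24 h without food did to these mRNAs. Cytosolic ribosomal protein genes were lower in starvation, in both subunits, and none rose. Of 85 tested, 14 fell at a Benjamini-Hochberg adjusted p under 0.05 in edgeR's quasi-likelihood test, which is 16.5%, where 1.14% of all 14668 genes tested fell and 2.55% rose. A negative fold change was found in 84 of 85, and the median was -0.55 against -0.01 over all genes. Groups did not overlap for 46 genes, all lower in starvation (11.2% of all genes were lower without overlap). At an unadjusted p under 0.05, 44 were lower and 0 higher (10.4% and 13% of all genes). DESeq2 called 29 lower and 0 higher, where it called 591 lower and 906 higher among all 14668 genes (10.3%). Of the core genes, 9 of 46 large subunit genes and 4 of 31 small subunit genes fell, with medians of -0.58 and -0.54.

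Among the large subunit proteins, Rpl15 had the smallest adjusted p of the cytosolic genes. It stood at 170, 234 and 187 CPM in sham replicates 1 to 3 and at 92.2, 97.2 and 86.2 CPM in starvation, with 206, 202 and 199 CPM in TPN. The starvation libraries lay close together and far below the other 6. Its log2 fold change against sham was -1.10 ± 0.16 (SE; adjusted p = 0.0105 in edgeR). Rpl35a had the largest fold change, -2.08 ± 0.46 (adjusted p = 0.0434 in edgeR), at 10.2, 38.3 and 14.7 CPM in sham and 4.95, 3.48 and 6.48 CPM in starvation. Sham replicate 2 was the highest by far, and without it the log2 fold change of Rpl35a was -1.33 (adjusted p = 0.0591 in edgeR). Rpl37a fell by 1.43 ± 0.31 and Rpl37, another short zinc-binding protein of the large subunit, by 1.08 ± 0.20 on the log2 scale (adjusted p = 0.0400 and 0.0283 in edgeR). The remaining core large subunit genes that fell were Rpl21, Rpl12, Rpl28, Rpl17 and Rpl7a, at log2 fold changes from -1.06 to -0.72.

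Among the small subunit proteins, Rps15a and Rps24 were lower in all starvation libraries. Rps15a stood at 26.2, 44.0 and 25.7 CPM in sham and at 16.4, 16.4 and 12.2 CPM in starvation, a log2 fold change of -1.09 ± 0.24 (adjusted p = 0.0436 in edgeR). Rps24, which is mutated in some cases of Diamond-Blackfan anemia in humans, stood at 119, 159 and 116 CPM in sham, 175, 172 and 176 CPM in TPN, and 73.2, 73.3 and 58.0 CPM in starvation. Its log2 fold change was -0.94 ± 0.17 (adjusted p = 0.0237 in edgeR). The TPN libraries were nearly equal, and no 2 groups overlapped. Rps9 and Rps23, the latter at the decoding centre, also fell, by 0.93 ± 0.20 and 0.87 ± 0.17 on the log2 scale.

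Several abundant and well known subunits did not pass the test. Rplp0, the scaffold of the large subunit stalk and a common reference gene, stood at 519, 522 and 547 CPM in sham and at 529, 469 and 269 CPM in starvation. Only starvation replicate 3 was far below sham, and the log2 fold change was -0.32 ± 0.24 (adjusted p = 0.442 in edgeR). Rpl4 had the same layout, with 522, 501 and 525 CPM in sham and 502, 536 and 306 CPM in starvation. Rps6, the substrate of the kinases downstream of mTORC1, had a log2 fold change of -0.41 ± 0.20, Rpl3 of -0.79 ± 0.23, Rps3 of -0.66 ± 0.17 and Rpsa of -0.73 ± 0.21, with adjusted p from 0.0691 to 0.257 in edgeR. Rpl15 and Rplp0 thus differed in their values within a ribosome whose proteins are assembled together, a difference between genes that was not tested.

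**Figure D3:**
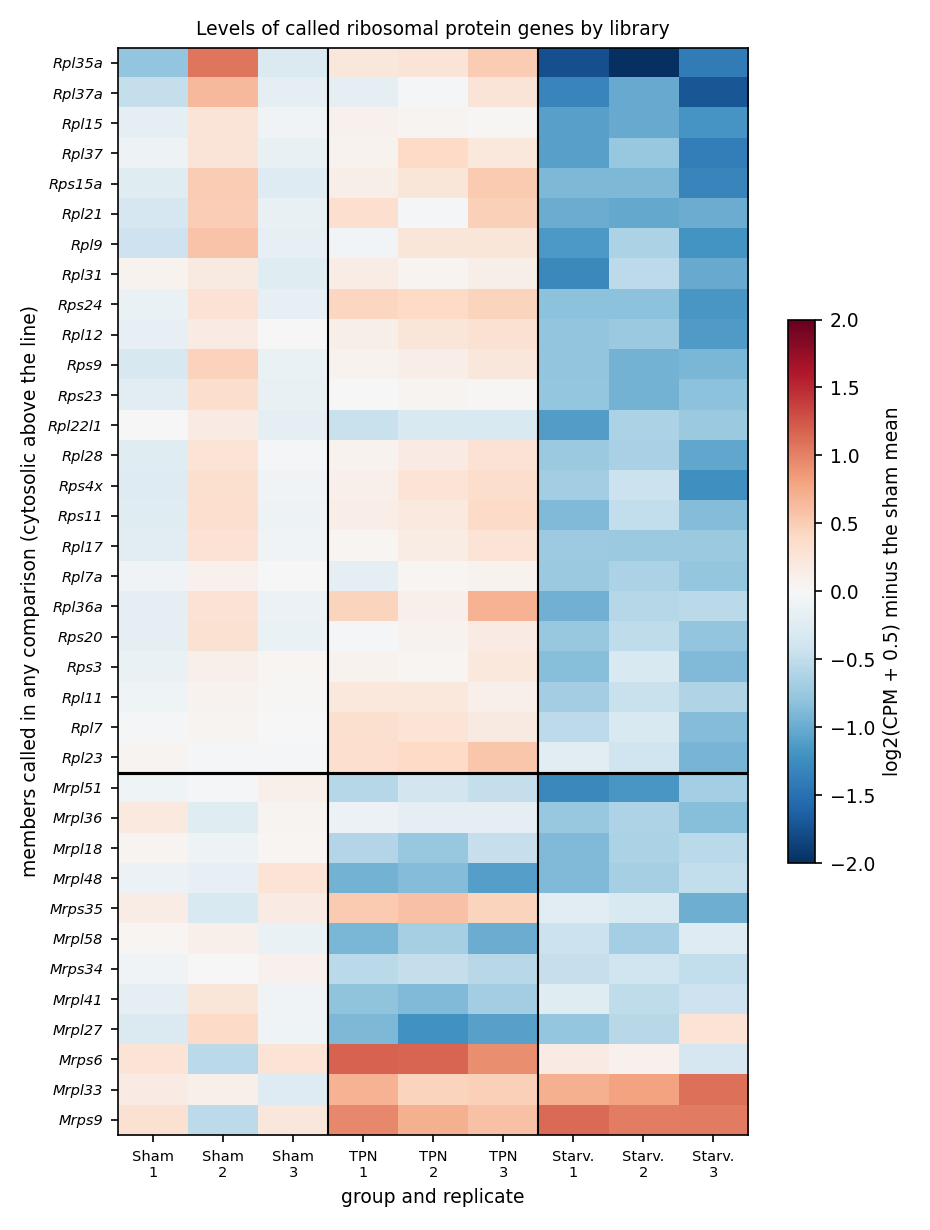
Every member called in any comparison (rows, cytosolic above the line) in each of the 9 libraries (columns). Colour is log2(CPM + 0.5) minus the mean of the sham libraries, red higher and blue lower; the starvation columns are blue for the cytosolic rows, and the mitochondrial rows hold both colours.

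The cytosolic genes were also split by how much of their sequence other genes hold. Of the 41 core genes with under 50% of windows shared, 10 fell and the median log2 fold change was -0.65. Of the 36 with 50% or more, 3 fell and the median was -0.54. Of the 12 with under 20% shared, all 12 had negative fold changes, 3 fell and the median was -0.66. Coding length was also compared, because these proteins are short. The 35 cytosolic core genes with a coding length up to 450 bases had a median of -0.65, where 980 genes of that length outside both ribosomes had -0.15. The 42 cytosolic core genes with a pyrimidine run of at least 10 bases had a median of -0.66, and the 15 with a shorter run -0.45. For mitochondrial core genes in starvation the order was the reverse, at -0.18 for 12 with such a run and -0.29 for 56 others. The cytosolic medians with and without the run were 0.12 and 0.22 in TPN against sham, and 0.77 and 0.73 in TPN against starvation. These differences were not tested.

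The count of 14 rested on all libraries. It was 5 without sham replicate 2, 0 without sham replicate 3, 3 without starvation replicate 1, 0 without starvation replicate 2, 1 without any single TPN library, and 0 when the fit held only the sham and starvation libraries. In that fit 2 of all genes were called. Fewer of all genes were called in the fits above too: 1.76% without sham replicate 2 and 0.214% without sham replicate 3. The share was 2.49% without starvation replicate 1 and 0.315% without starvation replicate 2. Without TPN replicates 1, 2 and 3 it was 0.69%, 0.783% and 0.939%. Without starvation replicate 3 the cytosolic count was 19. Without both starvation replicate 3 and sham replicate 2 it was 24 with a median of -0.26, less negative than the -0.55 of all libraries. In those fits 11.6% and 19.9% of all genes were called in either direction, against 3.69% with all libraries. Of all genes tested in them, 794 of 14947 and 1337 of 14855 were lower. Paneth cell markers, a secretory type of the crypt base, moved with the group: all 6 had reads, and they summed to 3097 to 3452 CPM in sham, 3176 to 4226 CPM in TPN and 509 to 1883 CPM in starvation, with 3 of 6 called lower against sham. Crypt markers summed to 638 to 1080 CPM in sham and 206 to 751 CPM in starvation. Smooth muscle markers summed to 1532 to 10990 CPM in sham and 1014 to 1811 CPM in starvation. The part of these cells in the result was not tested.

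Mitochondrial genes were called in both directions in starvation, though most fold changes were negative. Of 78 tested, 3 fell and 2 rose (6.41% called, against 3.69% of all genes), and the median log2 fold change was -0.28 with 55 of 78 negative. Groups did not overlap for 24 lower and 6 higher genes, which is 30.8% and 7.69%, against 11.2% and 13.9% of all genes. At an unadjusted p under 0.05, 19 were lower and 5 higher (10.4% and 13% of all genes). DESeq2 called 8 lower and 3 higher, where it called 10.3% of all genes. Mrpl51, a mitochondrion-specific protein of the large subunit, stood at 50.1, 52.3 and 57.3 CPM in sham and at 21.4, 23.5 and 33.0 CPM in starvation, with no overlap. It fell by 1.04 ± 0.18 on the log2 scale (adjusted p = 0.0219 in edgeR). Mrpl36, a short protein with a bacterial counterpart, fell by 0.76 ± 0.14 (adjusted p = 0.0299 in edgeR), from 66.8, 49.3 and 60.5 CPM in sham to 34.4, 38.0 and 32.2 CPM. Mrpl18 fell by 0.69 ± 0.15 (adjusted p = 0.0412 in edgeR).

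Mrpl33 and Mrps9 rose in starvation. Mrpl33, a short large subunit protein, stood at 13.6, 13.1 and 10.1 CPM in sham and at 20.3, 21.7 and 26.6 CPM in starvation. Its log2 fold change was 0.90 ± 0.19 (adjusted p = 0.0391 in edgeR). Other genes hold 30.3% of its 50-base windows, and the part of shared reads was not tested. Mrps9, a small subunit protein with a bacterial counterpart, stood at 10.3, 5.55 and 9.66 CPM in sham, 16.5, 13.7 and 12.6 CPM in TPN, and 18.7, 17.3 and 17.5 CPM in starvation. All starvation libraries exceeded all others, at a log2 fold change of 1.06 ± 0.25 against sham (adjusted p = 0.0497 in edgeR). Mrpl12, Mrpl3, Mrps5 and Mrps12 did not pass, at -0.44 ± 0.19, 0.20 ± 0.27, -0.44 ± 0.33 and -0.35 ± 0.14. The count of 5 was 1 without sham replicate 1, 2 without sham replicate 2, 1 without starvation replicate 1, 0 without sham replicate 3, starvation replicate 2 or any single TPN library, and 11 without starvation replicate 3. In that last fit 11.6% of all genes were called. The share of all genes was 1.17%, 1.76% and 0.214% without sham replicates 1, 2 and 3. It was 2.49% and 0.315% without starvation replicates 1 and 2, and 0.69% to 0.939% without a single TPN library.

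**Figure D4:**
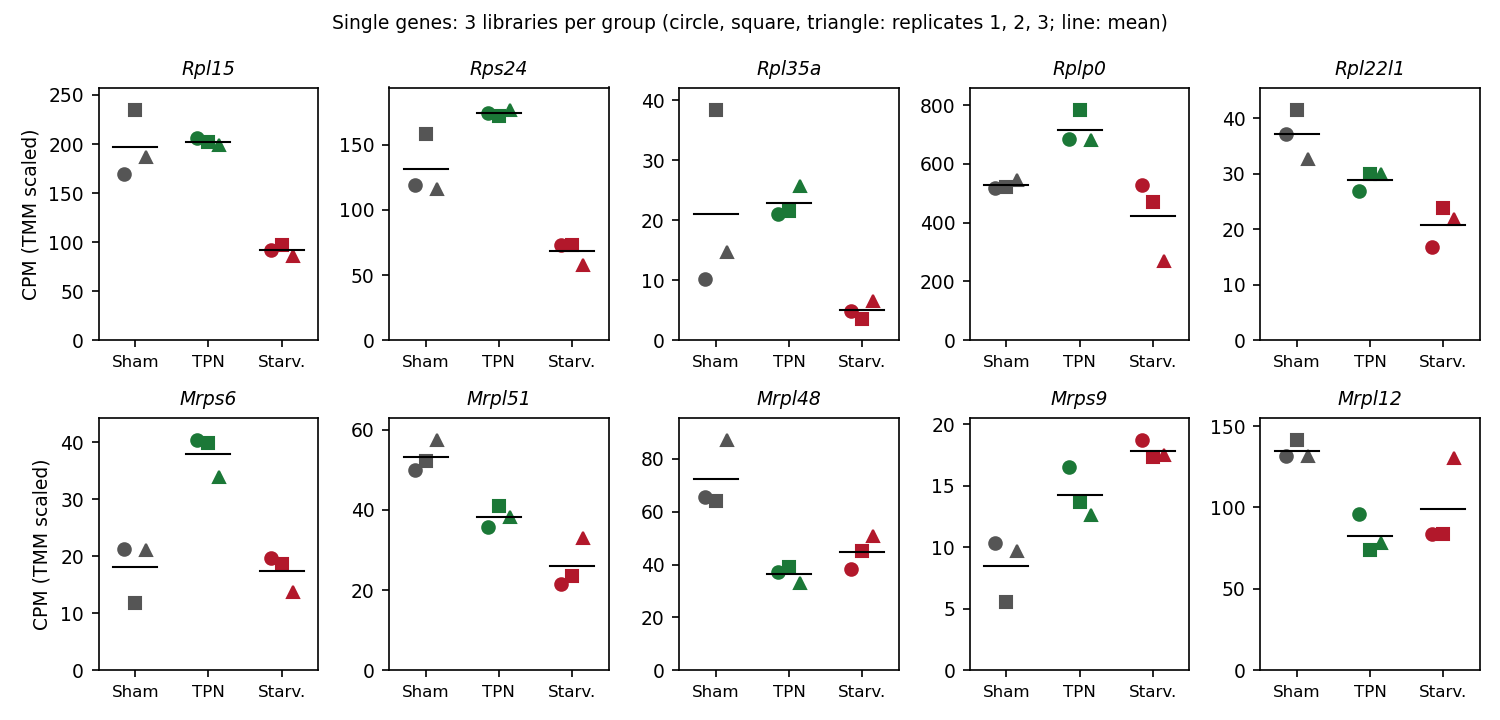
CPM of 10 ribosomal protein genes in each library, by group; symbols are replicates and lines group means, with every axis starting at 0. Rpl15 and Rps24 are low in all 3 starvation libraries, Rplp0 is far below sham only in starvation replicate 3, and Mrps6 is high in all 3 TPN libraries.

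TPN against sham asks what feeding by vein did. No cytosolic gene passed in edgeR, where 8.6% of all genes were called, 3.48% higher and 5.12% lower. At an unadjusted p under 0.05, 3 were higher and 0 lower (11.8% and 15.1% of all genes). DESeq2 called 1, Rpl22, which stood at 42.8, 49.3 and 41.7 CPM in sham and 69.8, 66.4 and 64.2 CPM in TPN without overlap, and limma voom called 0. For Rpl22, an RNA-binding protein of the large subunit, the log2 fold change was 0.58 ± 0.17 (adjusted p = 0.0691 in edgeR). The median over 85 genes was 0.14, with 62 positive, against -0.02 over all genes. Without sham replicate 2 and starvation replicate 3, 27 cytosolic genes rose with a median of 0.36, and without starvation replicate 3 alone 6 did. In those fits 2232 of 14855 and 1477 of 14947 genes tested rose, and 29.8% and 21.3% were called in either direction. Rplp0 stood at 684, 782 and 682 CPM in TPN, above all sham libraries, at a log2 fold change of 0.44 ± 0.24 (adjusted p = 0.274 in edgeR).

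Among the mitochondrial genes, 6 fell and 1 rose in TPN, which is 8.97% of 78, near the 8.6% of all genes. The median log2 fold change was -0.18. Groups did not overlap for 29 lower and 10 higher genes, which is 37.2% and 12.8% of the 78, against 21.4% and 21.3% of all genes. Enterocyte markers moved with the group, at 38930 to 69100 CPM in sham and 25410 to 30210 CPM in TPN (9 of 9 with reads, 3 called lower), as did fibroblast markers, at 451 to 1073 CPM and 236 to 302 CPM (7 of 7 with reads, 4 called lower), and their part was not tested. Mrpl48, a mitochondrion-specific large subunit protein, had the smallest adjusted p. It stood at 65.7, 64.0 and 87.0 CPM in sham, 37.0, 39.0 and 32.9 CPM in TPN, and 38.5, 45.0 and 50.7 CPM in starvation. Sham lay above both treatments, with a log2 fold change of -0.99 ± 0.17 in TPN (adjusted p = 0.0099 in edgeR).

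Mrpl27, whose bacterial counterpart reaches into the peptidyl transferase centre, stood at 32.1, 51.8 and 37.1 CPM in sham and 20.9, 16.7 and 18.3 CPM in TPN. It fell by 1.11 ± 0.29 (adjusted p = 0.0452 in edgeR), and other genes hold 39.04% of its 50-base windows. Mrpl58, a peptidyl-tRNA hydrolase built into the large subunit that frees stalled ribosomes, fell by 0.87 ± 0.17, from 29.6, 30.7 and 26.1 CPM to 15, 18 and 14.3 CPM. Mrpl41 fell by 0.82 ± 0.16 and Mrpl18 by 0.60 ± 0.15, so that 5 of the 6 genes that fell belong to the large subunit. The other, Mrps34, fell by 0.53 ± 0.11 (adjusted p = 0.0224 in edgeR). Its exons overlap those of Mapk8ip3 on the other strand over 63.4% of their length and those of Nme3 over 37.0%, so its reads are uncertain. Mrpl12 stood at 131, 141 and 132 CPM in sham and at 95.7, 73.9 and 78.2 CPM in TPN, with a log2 fold change of -0.71 ± 0.20 that did not pass (adjusted p = 0.0548 in edgeR).

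The gene that rose was Mrps6, a small subunit protein with a bacterial counterpart. It stood at 21.3, 11.8 and 21.2 CPM in sham, 40.3, 39.8 and 33.9 CPM in TPN, and 19.6, 18.6 and 13.8 CPM in starvation. Every TPN library exceeded every other library, at a log2 fold change of 1.07 ± 0.24 against sham (adjusted p = 0.0298 in edgeR) and 1.13 ± 0.24 against starvation (adjusted p = 0.0288 in edgeR). Mrps6 shares 19.9% of its exon bases with the gene Gm49711 and 10.4% with Slc5a3, a sodium and myo-inositol cotransporter gene, both on the same strand. Of its 50-base windows, 32.25% occur in other genes. Slc5a3 stood at 10.9, 4.91 and 10.7 CPM in sham, 22.7, 27.8 and 22.3 CPM in TPN, and 10.7, 10.03 and 4.17 CPM in starvation. The values of Mrps6 and Slc5a3 have the same layout, and the part of shared reads was not tested. The mitochondrial count of 7 was 2 without sham replicate 1, 1 without sham replicate 3, 4 without starvation replicate 2, 0 without any single TPN library and 18 without starvation replicate 3. In that last fit 21.3% of all genes were called. The share of all genes was 3.75% and 2.64% without sham replicates 1 and 3, and 4.62% without starvation replicate 2. Without TPN replicates 1, 2 and 3 it was 1.45%, 1.49% and 1.62%.

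TPN against starvation compares both treatments directly. It shares its libraries with the other comparisons, so its calls are not separate support for theirs. Of the 85 cytosolic genes, 23 were higher in TPN and 0 lower (27.1%, against 1.94% of all genes higher and 3.9% lower), with 83 positive and a median of 0.73 against -0.03 over all genes. At an unadjusted p under 0.05, 56 were higher and 0 lower (8.73% and 14.3% of all genes). DESeq2 called 42 higher and 0 lower, where it called 648 higher and 1034 lower among all 14668 genes (11.6%). Groups did not overlap for 65, all higher in TPN, where 15.3% of all genes were. The core large subunit had 15 of 46 higher and the small subunit 8 of 31. Rps24 had the smallest adjusted p, with a log2 fold change of 1.35 ± 0.17 (adjusted p = 0.00355 in edgeR). Rpl35a was at 2.20 ± 0.46, Rpl37a at 1.36 ± 0.31, Rps15a at 1.35 ± 0.24, Rpl37 at 1.30 ± 0.20 and Rpl15 at 1.14 ± 0.16, all called. Rps3, which lines the mRNA entry channel, was called at 0.77 ± 0.17, with 129, 126 and 141 CPM in TPN and 67.8, 98.9 and 66.6 CPM in starvation. Rplp0, Rpl4 and Rps6 did not pass, at 0.76 ± 0.24, 0.51 ± 0.22 and 0.60 ± 0.20.

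The 12 core genes with under 20% of windows shared were higher without overlap in all 12, and 6 of them were called. The count of 23 was 5, 4 and 4 without TPN replicates 1, 2 and 3, 15 without sham replicate 3, 35 without sham replicate 2, and 52 higher with 1 lower without sham replicate 2 and starvation replicate 3. In the last 2 of these fits 8.35% and 21.6% of all genes were called, with 465 and 1500 higher and 783 and 1705 lower. Without TPN replicates 1, 2 and 3, 1.07%, 0.916% and 0.831% of all genes were called. Of these, 48, 47 and 43 were higher and 111, 90 and 81 lower. Without sham replicate 3, 3.54% of all genes were called. Paneth markers were also higher in TPN, 4 of 6 called. Enterocyte markers were lower, 3 of 9 called, with all 9 fold changes negative, a median of -0.75 and sums of 25410 to 30210 CPM in TPN and 24780 to 92550 CPM in starvation. The part of these cells was not tested. Of the mitochondrial genes, 3 of 78 rose and none fell (3.85%, against 5.84% of all genes called), with a median of -0.01. Besides Mrps6 these were Mrps35, at 20.9, 21.8 and 19.7 CPM in TPN and 12.4, 11.5 and 7.06 CPM in starvation (1.01 ± 0.24, adjusted p = 0.0422 in edgeR), and Mrpl36 (0.58 ± 0.14, adjusted p = 0.0463 in edgeR). At an unadjusted p under 0.05, 10 were higher and 6 lower (8.73% and 14.3% of all genes). The count of 3 was 1 without sham replicate 1 or 3, 0 without starvation replicate 2 or any single TPN library, and 5 without starvation replicate 3. In that last fit 7.19% of all genes were called. The share of all genes was 3.6% and 3.54% without sham replicates 1 and 3, and 3.09% without starvation replicate 2. For the fits without a TPN library it is given above.

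**Figure D5:**
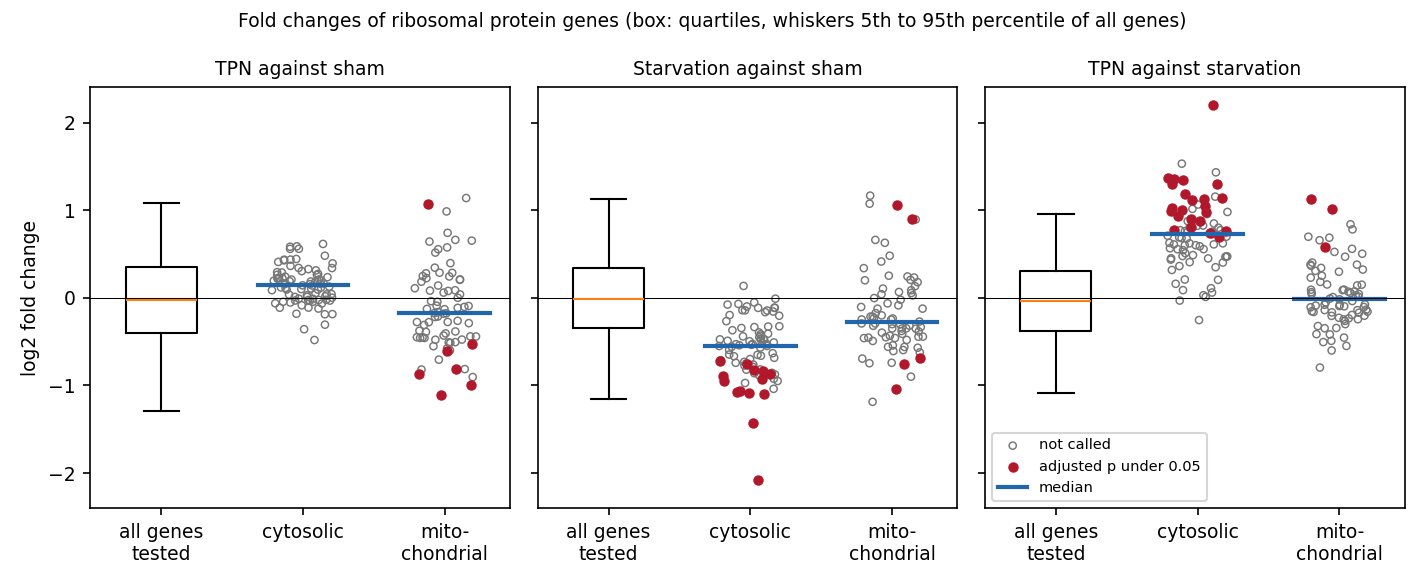
Log2 fold changes in the 3 comparisons for all 14668 genes tested (box) and for each cytosolic and mitochondrial gene (points, filled where the adjusted p is under 0.05; blue line, median). The cytosolic median is 0.14, -0.55 and 0.73 from left to right, and the mitochondrial median -0.18, -0.28 and -0.01.

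The paralogs of cytosolic proteins were mostly low and did not share 1 pattern. Rpl22l1, the paralog of Rpl22, was the only one of the 8 paralogs called in these 3 comparisons. It stood at 37.2, 41.4 and 32.7 CPM in sham, 27.0, 29.92 and 29.95 CPM in TPN, and 16.8, 23.8 and 21.9 CPM in starvation, and it fell by 0.84 ± 0.17 in starvation (adjusted p = 0.0337 in edgeR). In TPN its log2 fold change was -0.36 ± 0.17 (adjusted p = 0.204 in edgeR), where that of Rpl22 was 0.58. For Rpl22 the log2 fold change in starvation was -0.10 ± 0.17. A shift between these 2 genes was not tested, and 65.6% of the windows of Rpl22l1 occur in other genes. Rpl36al, a paralog of Rpl36a, ranged from 58.4 to 89.0 CPM, with log2 fold changes of -0.31 ± 0.17 in TPN and -0.05 ± 0.17 in starvation. Rpl7l1, a paralog found in the nucleolus, ranged from 49.8 to 65.4 CPM and had -0.14 ± 0.14 in starvation. Rps27l ranged from 1.28 to 4.05 CPM and Rps27rt from 1.12 to 6.76 CPM, with 91.1% of the windows of Rps27rt found in other genes. Rpl10l, known from the testis, had no read in any library, and Rpl39l and Rpl3l had reads in 2 libraries each.

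The 6 pseudogene-type names held few reads, from 0.0421% to 0.0655% of the cytosolic counts of a library. Over the 9 libraries, Rps12-ps3 had 346 reads, Rpl9-ps6 174, Rpl10-ps3 41 and Rpl36a-ps1 39, and Rpl9-ps1 and Rpl36-ps4 had 0. All 494 exon bases of Rps12-ps3 gave windows found in other genes (100%), and 89.2% of those of Rpl9-ps6. Neither was called, Rps12-ps3 at 0.00 ± 0.30 in TPN and -0.47 ± 0.30 in starvation. Which gene these reads came from, and how many reads of true subunit genes were dropped or placed elsewhere, was not tested.

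Fau and Rack1 encode small subunit proteins that the symbols miss, and neither passed the test in edgeR, at log2 fold changes of -0.83 ± 0.29 and -0.58 ± 0.26 in starvation. Of 5 mitochondrial ribosomal proteins outside the naming rule, Aurkaip1 fell in TPN against sham, by 0.76 ± 0.19 (adjusted p = 0.0415 in edgeR), and edgeR called none of the others in any comparison. In starvation against sham, 1 of the 5 was higher and 1 lower at an unadjusted p under 0.05 (13% and 10.4% of all genes). DESeq2 called 1 lower and limma voom called 0.

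Few of the factors that build ribosomes were called in edgeR. Of 111 biogenesis factors for the cytosolic ribosome, 1 fell in TPN (Tsr1, needed for small subunit maturation, -0.68 ± 0.12, adjusted p = 0.0122 in edgeR), 1 fell in starvation (Nhp2, of the snoRNPs that direct pseudouridylation, -1.10 ± 0.22, adjusted p = 0.0312 in edgeR), and 1 was higher in TPN than in starvation (Npm1, a nucleolar chaperone, 0.93 ± 0.17, adjusted p = 0.0163 in edgeR). That is 0.901% in each, against 8.6%, 3.69% and 5.84% of all genes. DESeq2 called 4 higher and 3 lower, 0 and 4, and 5 and 2, in the same order, where it called 15.4%, 10.3% and 11.6% of all genes. Their medians were 0.19, -0.12 and 0.35 in TPN against sham, starvation against sham and TPN against starvation. Of 19 genes of RNA polymerase I, which makes ribosomal RNA, edgeR called none in any comparison, with 4, 4 and 1 higher at an unadjusted p under 0.05 and none lower, where 11.8%, 13% and 8.73% of all genes were higher. DESeq2 called 1, 1 and 0 of them and limma voom 0. Of 31 assembly factors of the mitochondrial ribosome edgeR called none. At an unadjusted p under 0.05, 1, 1 and 3 were higher and 0, 3 and 3 lower. Of all genes, 11.8%, 13% and 8.73% were higher and 15.1%, 10.4% and 14.3% lower. DESeq2 called 0, 1 and 0 of the 31, and limma voom 0.

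A further list joined 26 genes for elongation and initiation factors and for other mRNAs, such as Tpt1, Hnrnpa1 and Vim, several of which are known to carry a terminal pyrimidine run. Of the 26, Eif4b, a cofactor of the initiation helicase, rose by 0.82 ± 0.15 and Eef2, which moves the ribosome along the mRNA, by 0.84 ± 0.18 in TPN against sham (adjusted p = 0.0155 and 0.0253 in edgeR), which is 7.69% against 8.6% of all genes. Eef2 averaged 2818 ± 118 CPM in sham, 5058 ± 572 in TPN and 3405 ± 353 in starvation (SD, n = 3). None passed in starvation against sham in edgeR. At an unadjusted p under 0.05, 1 of the 26 was higher and 8 lower, where 13% and 10.4% of all genes were. DESeq2 called 1 lower, where it called 10.3% of all genes, and limma voom 0. Eif3f was higher in TPN than in starvation, by 0.70 ± 0.17 (adjusted p = 0.0429 in edgeR). It was the only gene of the list called there, which is 3.85% against 5.84% of all genes. At an unadjusted p under 0.05, 14 of the list were higher and 0 lower (8.73% and 14.3% of all genes). DESeq2 called 7 higher and 0 lower, where it called 11.6% of all genes, and limma voom called 1. The medians of the list were 0.29, -0.22 and 0.40. Of 17 mitochondrial translation factors, 1 fell in TPN against sham, and it was Mrpl58, which is itself a subunit and is described above. In the other comparisons edgeR called none. At an unadjusted p under 0.05, 3 were higher and 3 lower in starvation against sham (13% and 10.4% of all genes). In TPN against starvation, 1 was higher and 2 lower (8.73% and 14.3% of all genes). DESeq2 called 1 in each, and limma voom 0.

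Among 25 genes of mTORC1 and of growth control, 1 rose and 2 fell in TPN against sham, and 1 was higher and 4 lower in TPN against starvation. These are 12% and 20% of the list, against 8.6% and 5.84% of all genes. Ddit4, an inhibitor of mTORC1, averaged 28.1 ± 1.92 CPM in sham, 139 ± 18.5 in TPN and 49.5 ± 13.7 in starvation (SD, n = 3). It rose by 2.31 ± 0.21 in TPN against sham and was higher by 1.49 ± 0.21 in TPN against starvation (adjusted p = 0.000825 and 0.00621 in edgeR). Mxi1, an antagonist of Myc, fell by 1.67 ± 0.25 and Rptor, a subunit of mTORC1, by 0.56 ± 0.14 in TPN against sham (adjusted p = 0.00653 and 0.0420 in edgeR). Against starvation, Sesn1, another inhibitor of mTORC1, was lower in TPN at -1.07 ± 0.17 and Rps6kb2, a ribosomal protein kinase gene, at -0.89 ± 0.15 (adjusted p = 0.00968 and 0.0114 in edgeR). In starvation against sham edgeR called none of the 25. At an unadjusted p under 0.05, 4 were higher and 1 lower, where 13% and 10.4% of all genes were. DESeq2 called 3 higher, where it called 10.3% of all genes, and limma voom 0.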

How the data were processed

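RNA of 9 jejunal libraries was analysed, 3 per group, grouped by the treatment label. The authors deposited unnormalized counts, 1 row per gene symbol. The submitters' processing notes list the aligner STAR 2.7.2e and the counter featureCounts 2.0.0, after FastQC and cutadapt, and the builds GRCm38 and mm10. Annotation release, strand setting and read length: not given in the sources used here. A further 9 columns matched no sample and were not used.

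Counts were filtered with filterByExpr (14668 of 21868 genes kept), scaled by TMM and fitted with edgeR 4.0.16 (quasi-likelihood, all 9 libraries, 6 residual degrees of freedom, a mean per group) in R 4.3.3. Each comparison was a contrast, and p-values were adjusted by Benjamini-Hochberg over all genes tested. The SE was taken as the absolute log2 fold change over the root of its F value. DESeq2 1.42.0 and limma 3.58.1 (voom) were alternatives. The code was tested on simulated data. Libraries of a group differed beyond sampling noise (chi-square per gene 7.74 to 118).

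Exon windows and overlaps came from GENCODE M21, start windows from RefSeq. Members and lists were chosen with earlier results of these data known. Genes named were, per comparison and ribosome, the 5 largest changes each way at a mean log2 CPM of at least 3, plus fixed reference subunits, paralogs, pseudogene-type names, the lowest and highest genes, and up to 3 called genes per direction of each pathway list. Rpl22, Rps24, Mrps34, Slc5a3 and the sequences shown were added after their values were seen. Filters, scalings, tools, single libraries left out and a replicate block were the alternatives. Some items are not reported here.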

Additional observations from a re-analysis of the deposited data

How the results depend on the processing

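The direction of the cytosolic median held in all 3 comparisons under every alternative run: from -0.67 to -0.26 in starvation against sham, 0.04 to 0.36 in TPN against sham and 0.64 to 0.84 in TPN against starvation. The counts moved. Cytosolic calls in starvation against sham (14) were 3 with library totals only, 29 with DESeq2, 0 with only the groups compared, 24 without both sham replicate 2 and starvation replicate 3, 0 at an adjusted p under 0.01, and 0 to 19 with single libraries left out. In TPN against starvation (23) they were 42 with DESeq2, 53 without both libraries, 4 at 0.01, and 4 to 35. In TPN against sham (0) they were 1 with DESeq2, 4 with only the groups compared, 27 without both libraries, and 0 to 6. Mitochondrial calls in TPN against sham (7) were 17 with only the groups compared, 21 without both libraries, 1 at 0.01, and 0 to 18. In starvation against sham (5) they were 2 with library totals only, 3 with no filter, 11 with DESeq2, 0 with only the groups compared, 17 without both libraries, 0 at 0.01, and 0 to 11. In TPN against starvation (3) they were 5 with upper quartile factors, 1 with library totals only, 5 with DESeq2, 9 without both libraries, 0 at 0.01, and 0 to 5. Over all genes, starvation against sham had 541 calls, 1497 with DESeq2 and 2 with only the groups compared. In TPN against sham, starvation against sham and TPN against starvation, 8.6%, 3.69% and 5.84% of all genes were called in the main fit. These shares were 15.4%, 10.3% and 11.6% with DESeq2, and 19.4%, 0.0141% and 3.78% with only the groups compared. Without both libraries they were 29.8%, 19.9% and 21.6%. At an adjusted p under 0.01 they were 1.76%, 0.205% and 0.982%. With single libraries left out they ran from 1.45% to 21.3%, from 0.214% to 11.6% and from 0.831% to 8.35%.

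With the replicate number as a block, the cytosolic counts were 2 in starvation against sham, 12 in TPN against starvation and 0 in TPN against sham. In the same order the mitochondrial counts were 0, 0 and 1, and 0.484%, 2.63% and 3.79% of all genes were called. The numbers do not pair the libraries: deviations of same-numbered libraries correlated from -0.30 to 0.38 and those of others from -0.58 to 0.48.

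The mitochondrial median in TPN against starvation, -0.01, turned positive with upper quartile factors (0.076), library totals only (0.12), limma voom (0.0099), only the groups compared (0.022), the replicate block (0.021) and without both libraries (0.036), and single libraries left out gave -0.044 to 0.050. In TPN against sham it was 0.0090 with library totals only, a scaling that moved the median of all genes to 0.17. On the TMM scale the TPN share of counts was 1.33% for cytosolic and 0.187% for mitochondrial genes, beside mean sums of 12420 and 2230 CPM in sham and 13290 and 1873 CPM in TPN, so that the cytosolic separation of TPN from sham was lost and a mitochondrial separation appeared. The mitochondrial share was 0.210% in TPN without acinar genes and Apoa4. Among the genes named, no called value changed sign. With each of the 9 libraries left out in turn, Rpl15, Rps24 and Ddit4 stayed called in TPN against starvation and Ddit4 and Mxi1 in TPN against sham, and no gene named did in starvation against sham. The totals of 7779877 to 12084278 counts limit the precision of low genes, so genes of about 1 CPM, such as Mrps36, are known least precisely.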
